A study of Sus scrofa with 18 samples.

Results

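The high-numbered pig miRNAs are the 46 mature miRNAs, of 465 listed, whose pig name carries a number of 2000 or more, with miR-4331, miR-4332, miR-7134, miR-10386 and miR-10390 left out. They carry 38 distinct numbers. Of the other rows, 7 belong to those 5 excluded numbers, 302 carry a lower number or a let-7 name, called the other named miRNAs here, and 110 are predicted from the reads and have no pig name. Small RNA was counted in adult Hechuan black pigs (castrated sows) in HC-L exosomes, HC-L muscle tissue, HC-P exosomes (Y-Exo in the labels) and HC-P muscle tissue, with 3 libraries in each group. The series was built around an oxidative and a glycolytic muscle, and the labels leave unsaid which type HC-L or HC-P is and whether replicates are separate pigs. P-values therefore measure the spread between these libraries, which may be technical. Exosomes are small vesicles released by cells, and here they were taken from homogenised muscle by centrifugation, filtration and a kit, with RNA drawn by Trizol LS. Tissue RNA was drawn by Trizol, so the extraction differs between every exosome and tissue library. In such bulk samples, fewer cells of a type and less RNA per cell cannot be told apart.

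A mature miRNA is a short RNA cut from one arm of a hairpin, named 5p or 3p after that arm, and loaded into an Argonaute protein that then represses mRNAs with a matching site. miRBase gives numbers in order of registration, so a high number marks a miRNA that was registered late. Many late entries came from deep sequencing of a single species, are low in abundance and lie within introns of other genes. Whether a member is restricted to the pig lineage cannot be tested with these files. The names miR-6516, miR-6529, miR-6782 and miR-7857 also exist for human miRNAs, and miR-2320, miR-2366, miR-2411 and miR-2483 also for cattle, so the set is called here by its rule.

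The libraries differed widely in depth, which sets what can be seen of such low miRNAs. HC-L exosome libraries held 674732, 631193 and 275361 miRNA reads, against 7331196, 9016010 and 6944879 in HC-L tissue. HC-P exosome libraries held 959599, 168341 and 106040 miRNA reads, against 3964875, 6507823 and 6690912 in HC-P tissue. Levels are given in the deposited TPM, which is the read count per 1e6 miRNA reads of the library and takes no account of length. A floor of 3 reads corresponds to 3.13 to 28.3 TPM in exosome libraries and to 0.333 to 0.757 TPM in tissue libraries. Floors and intervals cover counting error only, because the reads carry no molecular identifiers.

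One library stood apart. In HC-P tissue replicate 1, the 6 skeletal muscle markers, among them miR-1 and miR-133a-3p, took 48.6% of miRNA reads, against 72.6% to 81.1% in the other 5 tissue libraries. The 3 erythroid markers, miR-451, miR-144 and miR-486, took 1.53% there, against 0.120% to 0.273% in the other 5. Epithelial markers (6 of 8 listed in the table), at 0.00126%, myeloid markers, at 0.00202%, and the liver marker, at 0.0239%, lay in that library within the range of the other 5 tissue libraries. The muscle markers took 53.3% to 67.8% of reads in HC-L exosomes and 54.5% to 66.4% in HC-P exosomes, and none was at 0 in any group. Liver-enriched miR-122-5p took 0.0697% to 0.292% in HC-L exosomes, against 0.00324% to 0.127% in HC-L tissue. In HC-P it took 0.0573% to 0.919% of exosome reads and 0.0210% to 0.0364% of tissue reads. Epithelial markers took 0.00871% to 0.0160% in HC-L exosomes, with 0.000810% to 0.00137% in HC-L tissue, and 0.00646% to 0.0453% in HC-P exosomes, with 0.000658% to 0.00126% in HC-P tissue. Myeloid markers took 0.0114% to 0.0374% in HC-L exosomes, with 0.00200% to 0.00742% in HC-L tissue, and 0.00875% to 0.0660% in HC-P exosomes, with 0.00202% to 0.00517% in HC-P tissue. The part of these other cell types in the results that follow was not tested.

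The high-numbered miRNAs were sparse. Together they had 10565 reads over the 12 libraries, and the median member had 10.5 reads, against 610 for the other named miRNAs and 5 for the predicted ones. The median of the members' mean tissue level was 0.308 TPM, against 17.8 TPM for the other named miRNAs, and the highest member averaged 108 TPM in tissue. Of the 46 members, 13 had at least 100 reads in all, 10 had at least 10 but under 100, 17 had 1 to 9 and 6 had none. The 6 without a read were miR-4338, miR-7138-3p, miR-7140-3p, miR-9819-5p, miR-9848-3p and miR-9851-3p. No read among all libraries allows a pooled level of up to 0.0693 TPM. This bound rests mostly on tissue, whose libraries held 23292085 (HC-L) and 17163610 (HC-P) miRNA reads. Exosome libraries held 1581286 (HC-L) and 1233980 (HC-P), so the bound for exosomes alone is much looser. The 17 with 1 to 9 reads included both arms of miR-7139 and miR-7144, the minor arms of miR-7136, miR-7142 and miR-7143, and 5 further members seen by a single read each (miR-4337, miR-7857-3p, miR-9801-5p, miR-9811-5p and miR-9836-3p).

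A few members carried most of the reads. miR-6529 alone held 38.6% of all member reads, and with miR-7142-3p, miR-4334-3p, miR-6782-3p and miR-9843-3p it held 81.3%. Members took 0.0307% ± 0.00464 of miRNA reads in HC-L exosomes (SD, n = 3), against 0.0168% ± 0.00684 of reads in HC-L tissue. For HC-P the share was 0.0374% ± 0.00657 for exosomes and 0.0419% ± 0.0505 for tissue. The exosome libraries lay between 0.0253% and 0.0432%, and 5 of the 6 tissue libraries lay between 0.0101% and 0.0238%. The sixth, HC-P tissue replicate 1, had 0.1001% (exact 95% binomial interval 0.0970% to 0.103%). Without it, the HC-P tissue mean was 0.0128%. Since the members were chosen with results of these data known, these shares are a description without a test.

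More members had a read in tissue than in exosomes, in libraries of unequal depth. A read was found for 13, 18 and 14 members in the HC-L exosome libraries, against 26, 25 and 23 in HC-L tissue. In HC-P, 20, 13 and 13 members had a read in the exosome libraries and 31, 27 and 23 in the tissue libraries. Each library was then thinned to the 106040 reads of the smallest one, and the expected number of members with a read was calculated. It was 8.96 ± 1.26 in HC-L exosomes (SD, n = 3), against 6.604 ± 0.811 in HC-L tissue. In HC-P it was 10.7 ± 2.22 for exosomes and 8.67 ± 4.56 for tissue. At equal depth the order of exosome and tissue means was thus the opposite of the order at full depth, and the groups overlapped in HC-P, where tissue replicate 1 reached 13.9. Without that library the HC-P tissue mean was 6.05.

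**Figure D1:**
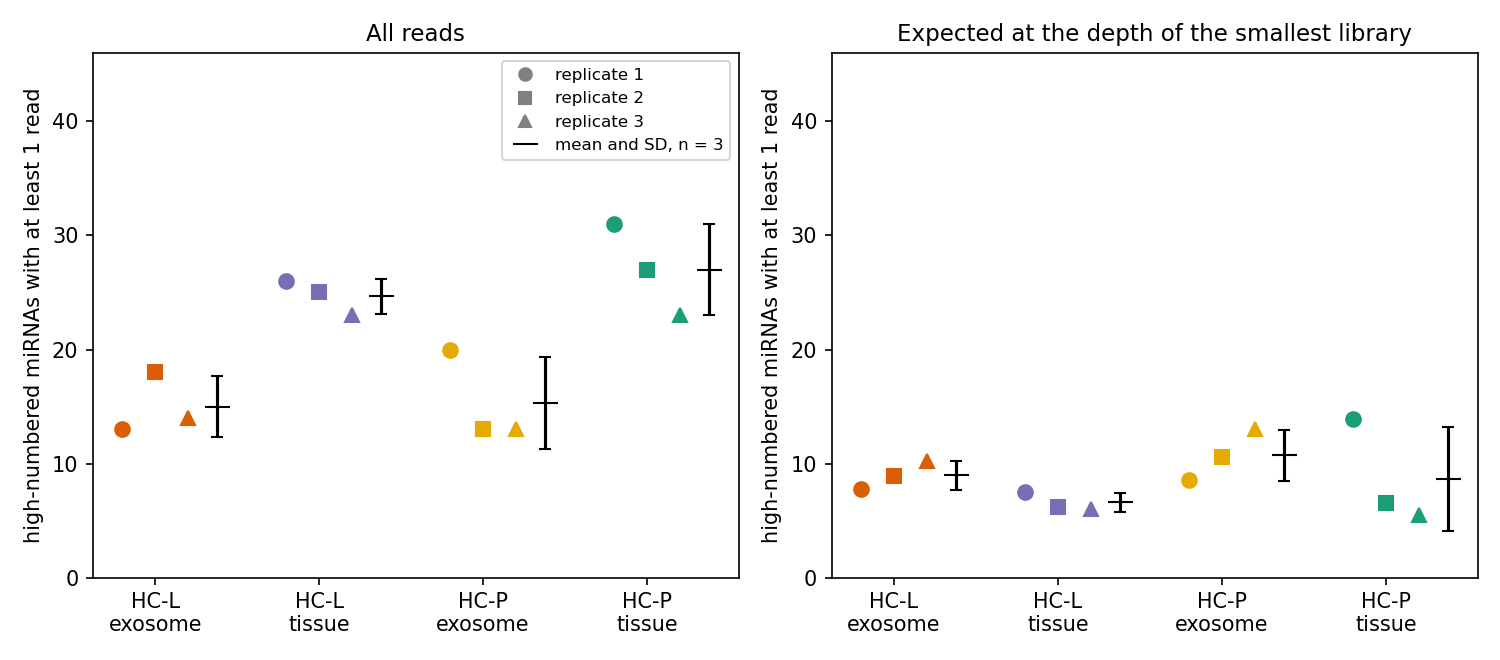
Number of the 46 high-numbered miRNAs with at least 1 read in each library (points; shape gives the replicate), with all reads on the left and calculated for 106040 reads per library on the right. Bars show the mean and SD of 3 libraries; the left panel runs from 13 to 31 members, with exosomes below tissue, and the right panel from 5.52 to 13.9, with HC-P tissue replicate 1 highest.

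At that depth the members were detected less completely than the other named miRNAs in all 4 groups. In HC-L exosomes 19.5% of members were expected with a read, against 61.4% of the other named miRNAs, and in HC-L tissue 14.4% of members, against 57.6%. In HC-P exosomes the members reached 23.3%, against 63.8% of the other named miRNAs, and in HC-P tissue 18.8%, against 59.8%. Predicted miRNAs were at 11.2% in HC-L exosomes, 3.90% in HC-L tissue, 12.8% in HC-P exosomes and 5.35% in HC-P tissue.

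Absence from exosomes could not be shown for any member. In HC-L, 31 members had a tissue read and 11 of them had no exosome read. In HC-P, 34 members had a tissue read and 12 of them had no exosome read. At their tissue level, each of these would have given fewer than 3 reads over the 3 exosome libraries of its muscle, with at most 2.58 for miR-2411 in HC-L and 2.76 for miR-9788-3p in HC-P. In the other direction, 3 members had reads in exosomes only. These were miR-7144-3p with 3 reads in HC-P exosome replicate 2 and 1 in replicate 3, and miR-7857-3p and miR-9811-5p with 1 read each in HC-P exosome replicate 1. Reads in tissue only were found for 13 members.

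Levels in every library are given for 10 members. Of these, 9 follow from a rule on level, total reads, calls and size of the exosome-tissue difference, and miR-10388 was added after its values were seen because DESeq2 called it. Other members named with values were likewise picked after their values were seen. Differences were tested on the read counts of all 12 libraries by edgeR's quasi-likelihood test with TMM scaling. Benjamini-Hochberg adjustment covered the 252 miRNAs that passed a filter on low counts, and an adjusted p under 0.05 is a call. Of the 46 members, 13 passed that filter and were tested (28.3%), against 73.5% of the other named miRNAs. Passing did not follow total reads alone. miR-7136-5p, with 142 reads, and miR-2320-5p, with 122, did not pass, while miR-9841-3p, with 67, did.

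miR-6529 was the member with the most reads. Its level was 197, 128 and 90.8 TPM in HC-L exosomes (replicates 1 to 3), against 78.7, 60.6 and 30.5 TPM in HC-L tissue. It was 321, 137 and 104 TPM in HC-P exosomes, against 373, 65.6 and 37.7 TPM in HC-P tissue. All HC-L exosome libraries were above all HC-L tissue libraries on this scale, and the HC-P groups overlapped through tissue replicate 1. On the TMM scale the HC-L groups overlapped as well, with 182, 131 and 46.7 counts per 1e6 counts (CPM) in exosomes against 104, 113 and 50.05 CPM in tissue. The log2 fold change of exosomes over tissue was 0.43 ± 0.70 (SE, edgeR adjusted p = 0.727) for HC-L and 0.15 ± 0.70 (edgeR adjusted p = 0.908) for HC-P. Replicate 3 had the lowest level in each of the 4 groups on both scales.

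miR-7142-3p, whose gene overlaps MARK2, a gene for a kinase that loosens microtubules, had the next most reads. It had 10, 11 and 3 reads in HC-L exosomes, against 522, 350 and 63 reads in HC-L tissue. The HC-P exosome libraries held 22, 1 and 4 reads of it, against 781, 175 and 91 reads in the HC-P tissue libraries. These were 14.8, 17.4 and 10.9 TPM in HC-L exosomes, against 71.2, 38.8 and 9.07 TPM in HC-L tissue. In HC-P the levels were 22.9, 5.94 and 37.7 TPM in exosomes, against 197, 26.9 and 13.6 TPM in tissue. The groups overlapped in both muscles, and the 3 tissue libraries of each muscle differed widely among themselves. The log2 fold change was -2.28 ± 0.84 (SE, edgeR adjusted p = 0.0834) for HC-L and -2.04 ± 0.86 (edgeR adjusted p = 0.0850) for HC-P, short of a call in both. When HC-P tissue replicate 1 was left out it was -2.18 for HC-L, which passed edgeR's threshold (adjusted p = 0.0438), and -0.93 for HC-P, which did not (adjusted p = 0.405).

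miR-6782-3p was the only member called in the fit just described, and the call rested on 1 library. The HC-P exosome libraries held 1, 1 and 0 reads of it, against 734, 12 and 22 reads in the HC-P tissue libraries. The HC-L exosome libraries held 7, 6 and 2 reads, against 45, 33 and 12 reads in HC-L tissue. These were 1.04, 5.94 and 0 TPM in HC-P exosomes, against 185, 1.84 and 3.29 TPM in HC-P tissue. HC-P tissue replicates 2 and 3 thus lay within the range of the HC-P exosome libraries. The log2 fold change in HC-P was -4.84 ± 1.58 (SE, adjusted p = 0.0396, edgeR). With HC-P tissue replicate 1 left out, miR-6782-3p did not pass the filter on low counts, whose cutoff moves with the libraries kept, and was not tested. Of the other single libraries left out, 6 still let it be tested, and the call held without HC-L exosome replicate 2 or HC-L exosome replicate 3 and was lost for the other 4, at adjusted p-values up to 0.149 (edgeR). DESeq2 gave no adjusted p for it. In HC-L the levels were 10.4, 9.51 and 7.26 TPM in exosomes, against 6.14, 3.66 and 1.73 TPM in tissue, and the log2 fold change was 0.38 ± 1.16 (SE, adjusted p = 0.843, edgeR). On the TPM scale the HC-L exosome libraries were all above the HC-L tissue libraries. On the TMM scale they overlapped, with 9.57, 9.70 and 3.73 CPM in exosomes against 8.13, 6.85 and 2.83 CPM in tissue.

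**Figure D2:**
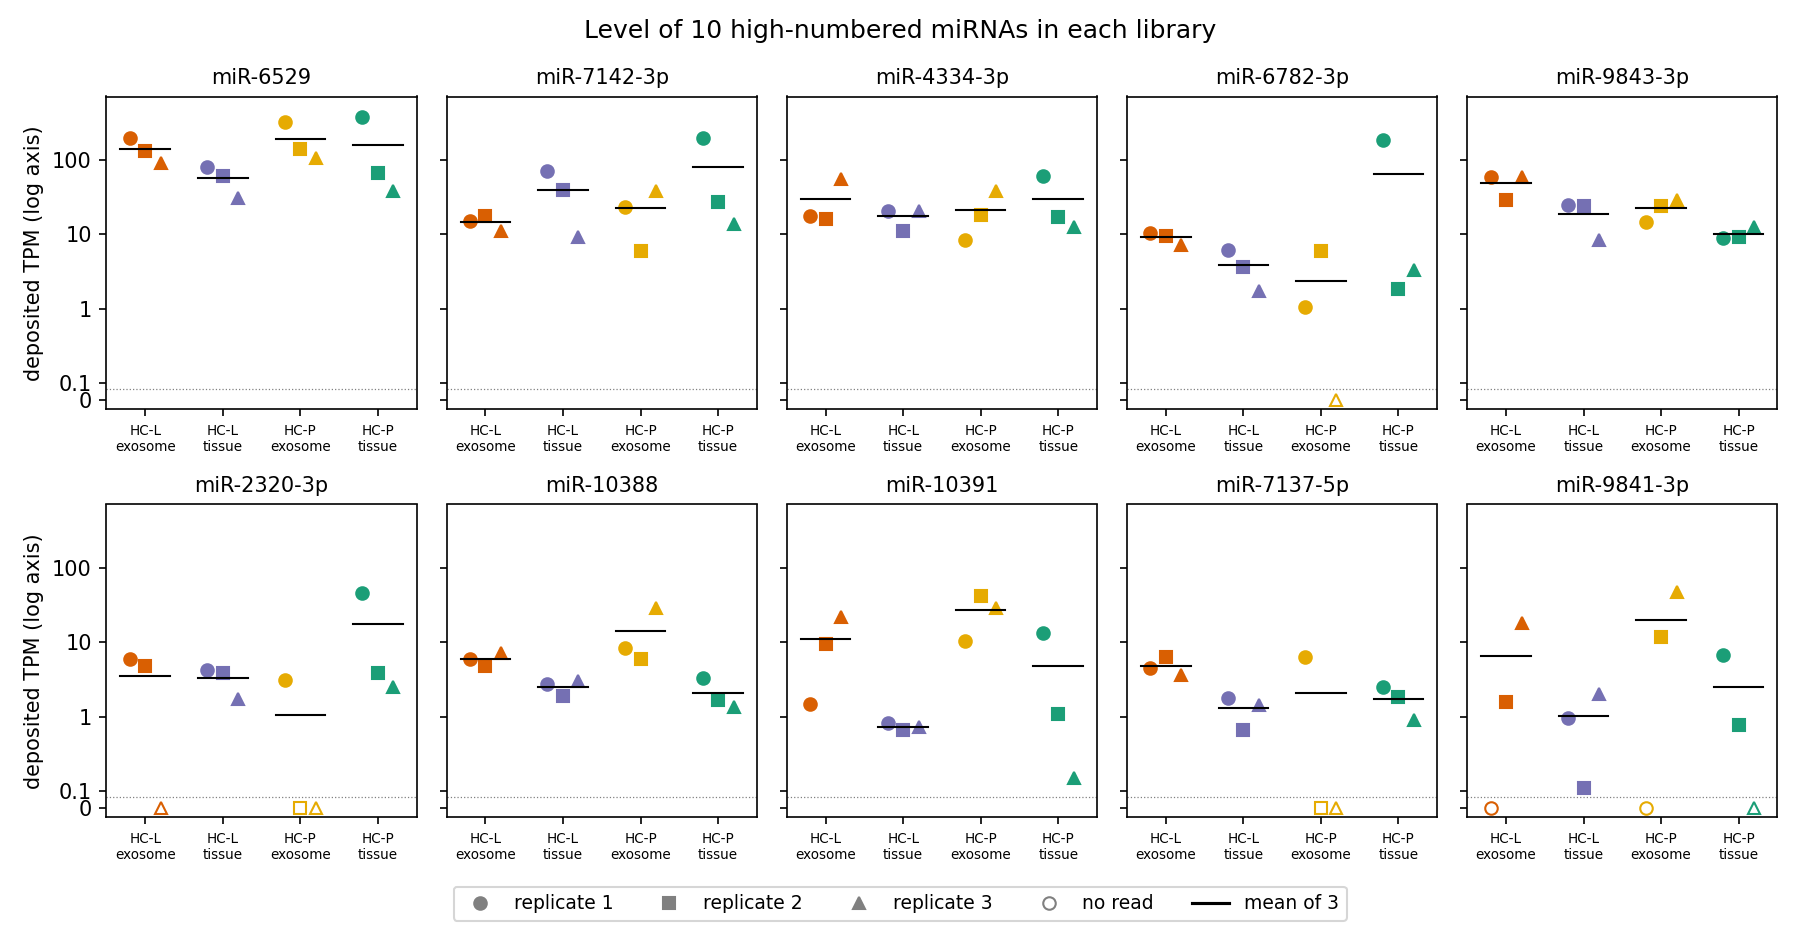
Level of 10 high-numbered miRNAs in each of 12 libraries, in deposited TPM on a log axis, with libraries without a read drawn open at 0 and the mean of 3 libraries as a line. HC-P tissue replicate 1 (filled circle at the right of each panel) reached 373 TPM for miR-6529, 197 TPM for miR-7142-3p and 185 TPM for miR-6782-3p, and the highest miR-10391 level was 41.6 TPM in HC-P exosome replicate 2.

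Among the 13 tested members, miR-10391 had the largest positive estimate of exosomes over tissue in both muscles with TMM scaling. For HC-P, miR-9841-3p had a larger one by DESeq2 (2.63, against 2.46 for miR-10391) and with library totals (2.65, against 2.39). The level of miR-10391 was 1.48, 9.51 and 21.8 TPM in HC-L exosomes, against 0.818, 0.665 and 0.720 TPM in HC-L tissue, with no overlap. It was 10.4, 41.6 and 28.3 TPM in HC-P exosomes, against 13.4, 1.08 and 0.149 TPM in HC-P tissue, with overlap through tissue replicate 1. These rest on few exosome reads, namely 1, 6 and 6 in the HC-L libraries and 10, 7 and 3 in the HC-P ones. The log2 fold change was 2.59 ± 1.06 (SE, edgeR adjusted p = 0.106) for HC-L and 2.25 ± 1.01 (edgeR adjusted p = 0.104) for HC-P. It was past the threshold by DESeq2 for HC-L (DESeq2 adjusted p = 0.0331) and, with HC-P tissue replicate 1 left out, by edgeR for HC-L (2.72, edgeR adjusted p = 0.0281) and also for HC-P (4.09, edgeR adjusted p = 0.00895). Over all single libraries left out, the HC-P estimate ran from 1.63, without HC-P exosome replicate 2, up to that 4.09. In the authors' deposited table its log2 fold change was 3.02 for HC-L (the authors' adjusted p = 0.00637) and 2.45 for HC-P (0.204).

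miR-10388 had 5.93, 4.75 and 7.26 TPM in HC-L exosomes, against 2.73, 1.89 and 3.02 TPM in HC-L tissue. In HC-P it had 8.34, 5.94 and 28.3 TPM in exosomes, against 3.28, 1.69 and 1.35 TPM in tissue. Neither pair overlapped on this scale, but the exosome levels rest on 4, 3 and 2 reads in HC-L and on 8, 1 and 3 in HC-P. On the TMM scale the HC-L groups overlapped, with 5.47, 4.85 and 3.73 CPM in exosomes against 3.61, 3.53 and 4.96 CPM in tissue. The log2 fold change of miR-10388 was 0.23 ± 0.64 (SE, edgeR adjusted p = 0.827) for HC-L and 1.81 ± 0.66 (edgeR adjusted p = 0.0568) for HC-P, and DESeq2 called it in HC-P (adjusted p = 0.0367). miR-7137-5p, whose gene overlaps the rRNA methyltransferase gene BUD23, had 4.45, 6.34 and 3.63 TPM in HC-L exosomes, against 1.77, 0.665 and 1.44 TPM in HC-L tissue. In HC-P it had 6.25, 0 and 0 TPM in exosomes, against 2.52, 1.84 and 0.897 TPM in tissue. Its log2 fold changes were 1.06 ± 0.82 (SE, edgeR adjusted p = 0.412) for HC-L and 0.65 ± 0.89 (edgeR adjusted p = 0.606) for HC-P. Both miR-10388 and miR-7137-5p passed the filter on low counts through exosome libraries only. Their tissue levels were at most 3.28 TPM for miR-10388 and 2.52 TPM for miR-7137-5p.

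miR-9841-3p, whose gene overlaps F13A1, the gene of the coagulation factor XIII A subunit, varied widely between replicates. It had 0, 1.58 and 18.2 TPM in HC-L exosomes, against 0.955, 0.111 and 2.02 TPM in HC-L tissue. It had 0, 11.9 and 47.2 TPM in HC-P exosomes, against 6.81, 0.768 and 0 TPM in HC-P tissue. In both muscles exosome replicate 1 had no read and exosome replicate 3, with 5 reads in each muscle, was highest. The log2 fold changes were 1.09 ± 1.57 (SE, edgeR adjusted p = 0.672) for HC-L and 2.13 ± 1.59 (edgeR adjusted p = 0.324) for HC-P. The HC-P estimate was 0.44 without HC-P exosome replicate 3 and 3.58 without HC-P tissue replicate 1, and the HC-L estimate was -0.59 without HC-L exosome replicate 3.

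miR-4334-3p, whose gene overlaps the aspartyl aminopeptidase gene DNPEP, had 17.8, 15.8 and 54.5 TPM in HC-L exosomes, against 20.5, 10.9 and 20.7 TPM in HC-L tissue. In HC-P it had 8.34, 17.8 and 37.7 TPM in exosomes, against 60.5, 17.1 and 12.6 TPM in tissue. The groups overlapped in each muscle, and the log2 fold change was -0.43 ± 0.55 (SE, edgeR adjusted p = 0.630) for HC-L and -1.26 ± 0.61 (edgeR adjusted p = 0.127) for HC-P. miR-2320-3p had 5.93, 4.75 and 0 TPM in HC-L exosomes, against 4.23, 3.88 and 1.73 TPM in HC-L tissue. In HC-P it had 3.13, 0 and 0 TPM in exosomes, against 45.4, 3.84 and 2.54 TPM in tissue. Its log2 fold changes were -0.54 ± 1.01 (SE, edgeR adjusted p = 0.768) for HC-L and -2.91 ± 1.20 (edgeR adjusted p = 0.0795) for HC-P. HC-P tissue replicate 1 held 180 of its reads, against 25 and 17 in replicates 2 and 3. With that library left out it did not pass the filter on low counts and was not tested. Without HC-P exosome replicate 1 no HC-P exosome read remained, and the fitted -8.18 is no bound. The HC-L estimates of both miRNAs were above 0 with library totals as the scale, at 0.71 for miR-4334-3p and 0.29 for miR-2320-3p.

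miR-9843-3p, whose gene overlaps SGMS2, the gene of a sphingomyelin synthase, had 57.8, 28.5 and 58.1 TPM in HC-L exosomes, against 24.6, 23.7 and 8.35 TPM in HC-L tissue. It had 14.6, 23.8 and 28.3 TPM in HC-P exosomes, from 14, 4 and 3 reads, against 8.83, 9.22 and 12.6 TPM in HC-P tissue. Exosomes were above tissue without overlap in both muscles on this scale, yet on the TMM scale the log2 fold changes were 0.31 ± 0.64 (SE, edgeR adjusted p = 0.778) for HC-L and 0.03 ± 0.70 (edgeR adjusted p = 0.978) for HC-P. Between the muscles, its lowest HC-L exosome library (28.5 TPM) lay just above its highest HC-P exosome library (28.3 TPM). The latter level is the floor of 3 reads in that library, so this separation rests on few reads. The log2 fold change of HC-L over HC-P was 1.39 ± 0.71 in exosomes (SE, adjusted p = 0.991, edgeR) and 1.11 ± 0.63 in tissue (adjusted p = 0.555). In the authors' deposited table of muscle mRNA, SGMS2 itself was higher in HC-L than in HC-P, with a log2 fold change of 2.28 and an adjusted p of 0.000188. A link between SGMS2 and the miRNA was not tested.

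Counted over the 13 tested members, exosomes and tissue differed as follows. In HC-L, 0 members were called by edgeR, against 16.3% of the 252 miRNAs tested (41 called), and DESeq2 called 1, miR-10391, against 18.3% of all tested. An unadjusted edgeR p under 0.05 was found for 2 members in HC-L, against 79 of the 252, and for 5 members in HC-P, against 110 of the 252. With HC-P tissue replicate 1 left out, 8 members could be tested among 221 miRNAs. edgeR then called 2 of them in HC-L, miR-7142-3p and miR-10391, against 36.7% of the 221, and 1 in HC-P, miR-10391, against 37.6%. In HC-P, 1 member was called by edgeR, against 25.8% of all tested (65 called), and it was lower in exosomes, as were 16.7% of all tested. DESeq2 also called 1 member in HC-P, miR-10388, against 25.8% of all tested. edgeR called that miRNA alone among members with DESeq2 size factors, against 20.2% of all tested, and when library totals left out the 3 highest miRNAs, against 19.4%. With the replicate block it called miR-6782-3p, against 23.4%. The median log2 fold change of the 13 members was 0.26 for HC-L and 0.03 for HC-P, against -0.40 for HC-L and -0.70 for HC-P over all 252. The estimate was above 0 for 8 members in HC-L and for 7 in HC-P, a count that moved to 12 and 9 with library totals as the scale and to 8 and 5 with the replicate block. The other 33 members are not in these counts, since they did not pass the filter on low counts. Without that filter, the median of the 40 members with a read was 0 for HC-L and -0.99 for HC-P. Over all 444 miRNAs it was -0.083 for HC-L and -0.79 for HC-P. The estimate was then above 0 for 13 and below 0 for 18 members in HC-L, and for 14 and 23 in HC-P. The medians of the 13 tested members therefore do not describe all members. The filter asks for a level that few reads reach in the shallow exosome libraries. miR-10388 and miR-7137-5p passed it through exosome libraries only, and miR-10391 and miR-9841-3p through exosome libraries and HC-P tissue replicate 1. These members had estimates above 0 in both muscles. The medians of the tested members and their counts above 0 are thus partly set by the filter. miR-6516, miR-10384 and miR-7137-3p, the tested members not described so far, had log2 fold changes between -1.16 and 0.26 over both muscles and were not called.

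**Figure D3:**
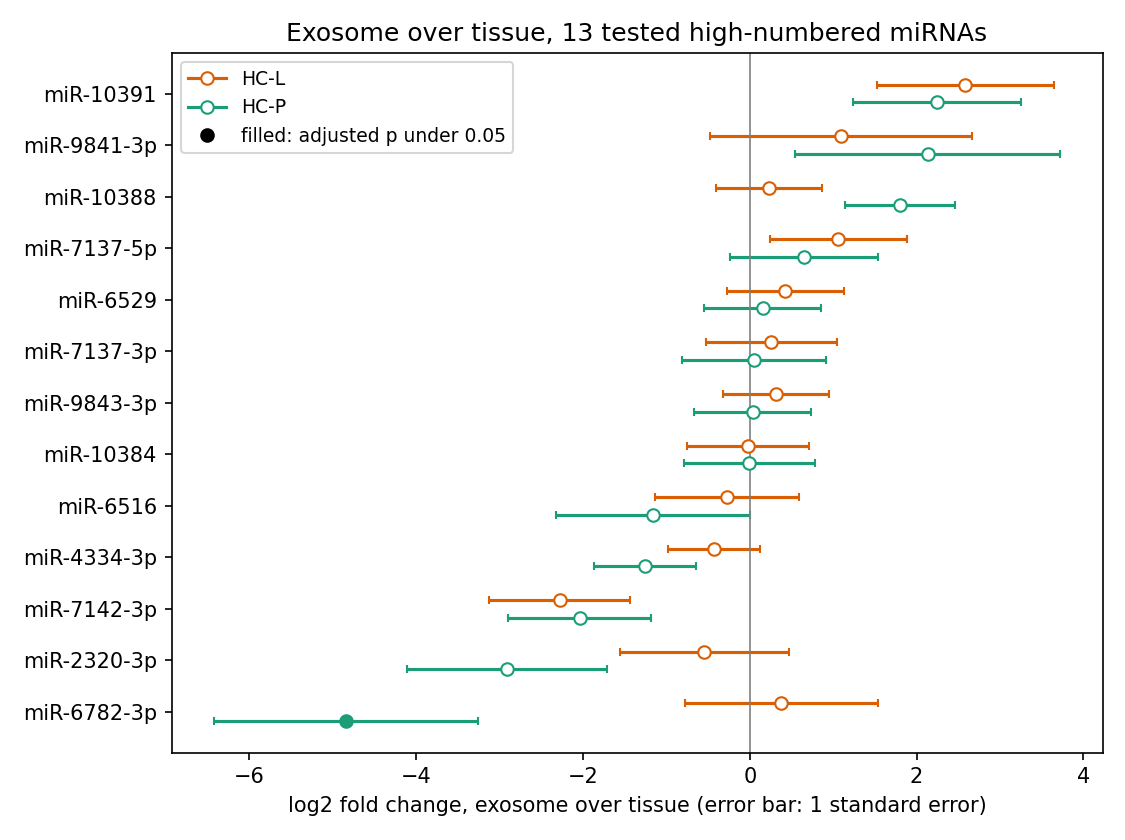
Log2 fold change of exosomes over tissue for the 13 tested high-numbered miRNAs in HC-L (upper point of each pair) and HC-P (lower point), from edgeR, with bars of 1 standard error. Values run from 2.59 for miR-10391 in HC-L to -4.84 for miR-6782-3p in HC-P, the 1 filled point, which rests on HC-P tissue replicate 1.

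Between the muscles neither edgeR with the filter on low counts nor DESeq2 called a member. Without that filter edgeR called miR-6782-3p and miR-2320-5p for tissue, both lower in HC-L, against 6.31% of 444 miRNAs, and miR-6782-3p for the difference of the exosome-tissue differences, against 1.13%. Their HC-P tissue reads lay mostly in replicate 1, with 734, 12 and 22 for miR-6782-3p and 105, 1 and 2 for miR-2320-5p. HC-L tissue held 45, 33 and 12 reads of miR-6782-3p and 7, 0 and 4 of miR-2320-5p. Without both the filter and HC-P tissue replicate 1 these calls were not tested. With the filter, for HC-L exosomes over HC-P exosomes edgeR called 0 of 252 miRNAs (0%), with 8 at an unadjusted p under 0.05, none of them a member. DESeq2 called 2 there, neither a member. For HC-L tissue over HC-P tissue edgeR called 0 of 252 (0%), with 28 at an unadjusted p under 0.05, and DESeq2 called 0. The 1 member among those 28 was miR-6782-3p, with a log2 fold change of -2.79 ± 1.11 (SE, adjusted p = 0.370, edgeR). For the difference between the muscles in the exosome-tissue difference, edgeR called 0 of 252 (0%), with 8 at an unadjusted p under 0.05, and DESeq2 called 0. miR-6782-3p was again the 1 member among those, at 5.22 ± 1.997 (SE, adjusted p = 0.956, edgeR). These comparisons share libraries, and HC-P tissue replicate 1 enters both of the last ones.

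HC-P tissue replicate 1 held 3968 member reads, against 5611 in the other 5 tissue libraries together. For 13 members it held more reads than those 5 libraries summed, among them miR-6782-3p with 734 reads, miR-2320-3p with 180 and miR-9788-3p with 26 of its 28 reads. Of the 37 members with a tissue read, 27 had their highest tissue level there (73.0%). So had 5 of the 7 miRNAs with an excluded number (71.4%), 55.1% of the other named miRNAs and 58.7% of the predicted ones. On the TMM scale the ratio of this library to the median of the other 5 had a median of 2.07 over the 13 tested members, 2.79 over the 10 tested predicted miRNAs, 2.04 over the 7 miRNAs with an excluded number and 0.968 over the 222 other named miRNAs tested. The pattern did not hold for each member. miR-9843-3p was at 0.230 and miR-6516 at 0.149 of the median of the other 5 on that scale. Beside these values stand the lower muscle marker share and higher erythroid marker share of the same library, and their part was not tested.

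**Figure D4:**
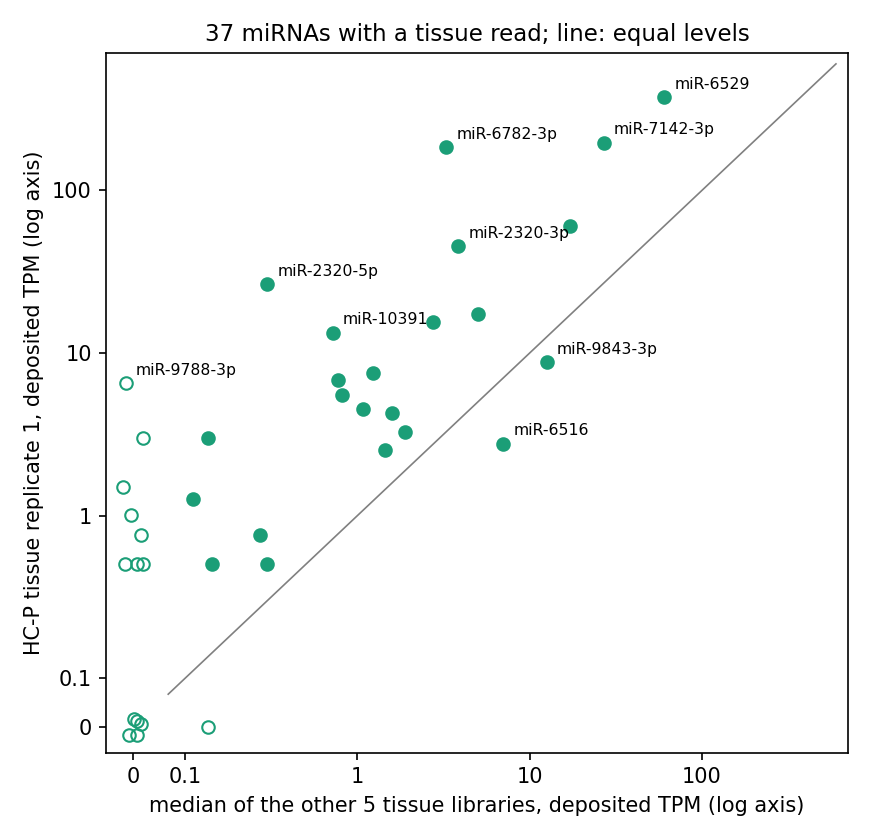
Level of the 37 high-numbered miRNAs with a tissue read in HC-P tissue replicate 1 (vertical axis) against the median of the other 5 tissue libraries (horizontal axis), both in deposited TPM on log axes, with values of 0 drawn open near the edge with a small random offset and a line of equal levels. miR-6782-3p lies at 185 TPM in that library, and miR-9843-3p, at 8.83 TPM, and miR-6516, at 2.77 TPM, lie below the line.

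Both arms were listed for 8 hairpins, which differed in how their reads were divided. miR-7142 had 2033 reads of its 3p arm and 4 of its 5p arm, and all 4 fell in HC-P tissue replicate 1. miR-7136 had 142 reads of its 5p arm and 8 of its 3p arm. miR-7137 used both arms, with 71 reads of 5p and 104 of 3p. miR-7138 had 8 reads of 5p and none of 3p, and miR-7143 had 1 of 5p and 13 of 3p. For miR-7139 and miR-7144 there were 10 or fewer reads in all.

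The arms of miR-2320 were used in different proportion in the library that stood apart. The 5p arm gave 36.8% of 285 miR-2320 reads in HC-P tissue replicate 1 (exact 95% binomial interval 31.2% to 42.7%), against 10.4% of 134 reads in the other 5 tissue libraries together (5.83% to 16.9%). By library, it gave 7 of 38, 0 of 35 and 4 of 16 reads in HC-L tissue, and 1 of 26 and 2 of 19 reads in HC-P tissue replicates 2 and 3. These single shares ran from 0% to 25%, so the interval of the pooled share, which holds counting error only, is narrower than the spread between libraries. In exosomes the 5p arm gave 3 of 13 reads.

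Gene neighbourhood was looked up by name in the RefSeq table of Sscrofa11.1, without regard to strand. Of the 38 numbers, 31 had a gene there, and 30 of those were placed on a chromosome. For 23 numbers the miRNA gene overlapped a protein-coding gene, and miR-7143 overlapped a long non-coding RNA gene only. Besides those named above, overlapped genes included FGFR4, a fibroblast growth factor receptor (miR-7138), ABCC1, a drug efflux transporter (miR-7135), MPC2, a subunit of the mitochondrial pyruvate carrier (miR-9810), E2F7, a transcriptional repressor of the cell cycle (miR-7139), and COL5A3, a collagen chain (miR-9801). No entry was found for miR-6516, miR-6529, miR-10382, miR-10383, miR-10384, miR-10388 and miR-10391. Of 25 genes overlapped, 2 were in the authors' deposited table of 522 mRNAs called between HC-L and HC-P muscle, SGMS2 and RTKN2. RTKN2, which the miR-9836 gene overlaps, had a log2 fold change of 4.49 there (the authors' adjusted p = 2.49e-10), and miR-9836-3p had 1 read over all libraries. That table holds called mRNAs only, so the share over all genes is not known and the 2 of 25 cannot be set against it.

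The authors' deposited table of mRNAs pairs each gene with related miRNAs, by a method not given in the sources used here. It named 30 of the 46 high-numbered miRNAs, for 152 of the 522 mRNAs. Of those 152 mRNAs, 65.8% were higher in HC-L, against 70.3% of the 320 mRNAs with any related miRNA and 68.2% of all 522. The share of mRNAs higher in HC-L with a high-numbered miRNA was thus near that of the table. The member with the most reads was not the one paired with the most mRNAs, and no correlation over the 46 members was calculated. miR-10382, with 8 reads over all libraries, was paired with 33 mRNAs, the most of any member, while miR-6529, with 4075 reads, was paired with none and miR-7142-3p, with 2033 reads, with 1. Next came miR-2320-5p with 26 mRNAs and 122 reads, miR-7137-3p with 25 mRNAs and 104 reads, and miR-6782-3p with 18 mRNAs and 875 reads. Of the members without any read, miR-9851-3p was paired with 18 mRNAs, miR-7138-3p with 14 and miR-4338 with 1. For 53 mRNAs, each high-numbered miRNA paired with them had fewer than 10 reads, and the 5 members with the most reads were paired with 30 mRNAs in all.

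**Figure D5:**
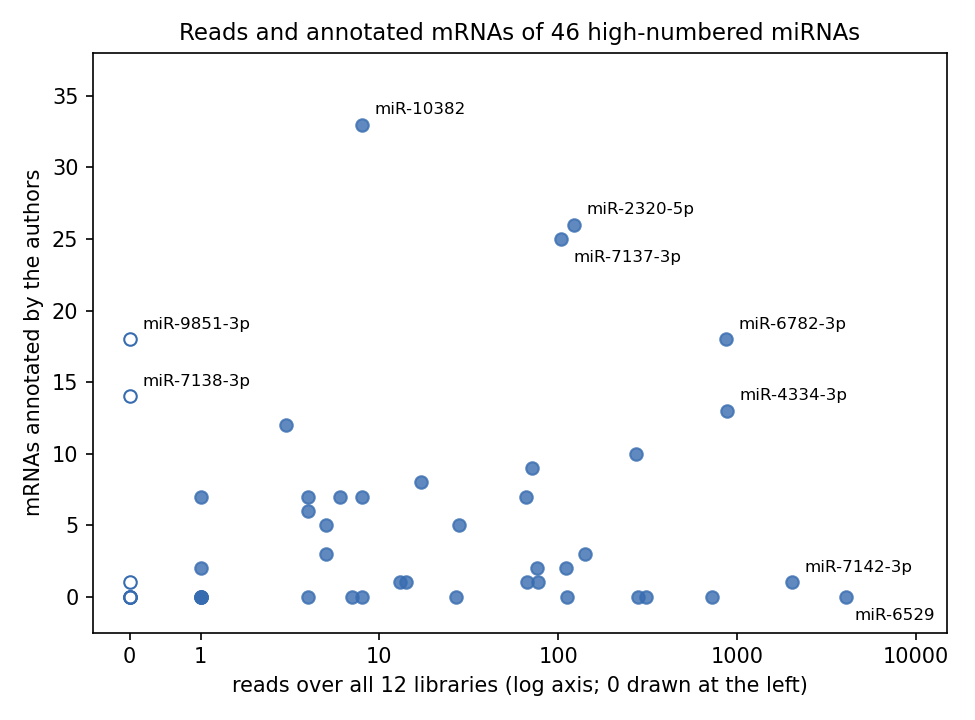
Number of mRNAs that the authors' deposited table pairs with each of the 46 high-numbered miRNAs (vertical axis) against its reads over all 12 libraries (horizontal log axis, with members without a read drawn open at the left). miR-10382 stands highest, at 33 mRNAs with 8 reads, and miR-6529, at 4075 reads, has 0.

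Other members appear in the authors' deposited tables of changed miRNAs. There miR-7142-3p had a log2 fold change of -1.93 between HC-L exosomes and HC-L tissue (adjusted p = 0.0627). Between HC-P exosomes and HC-P tissue the authors' deposited table gave 7.32 for miR-7144-3p (adjusted p = 0.0219) and 3.89 for miR-2483 (adjusted p = 0.213). The value for miR-7144-3p is set against a tissue group at 0 and rests on 4 exosome reads, so it is no bound on the difference, and among the settings run it was called by edgeR only when no filter on low counts was used, with 2 of 40 members called, against 18.7% of all 444 miRNAs. With all 12 libraries miR-2483 did not pass the filter on low counts, whose cutoff moves with the libraries kept. edgeR called it higher in HC-P exosomes without HC-L exosome replicate 2 (against 19.2% of all tested), without HC-L exosome replicate 3 (21.1%) or without HC-P exosome replicate 3 (12.2%). The HC-P exosome libraries held 6, 1 and 0 reads of it, against 2, 0 and 2 reads in HC-P tissue. Its level was 6.25 and 5.94 TPM in HC-P exosome replicates 1 and 2, and at most 1.58 TPM in any other library. miR-2483 thus passed the filter in those fits only through the group where it was high, so the calls are no support for a difference. For HC-L tissue over HC-P tissue the authors' deposited table gave -4.32 for miR-9788-3p (adjusted p = 0.998).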

How the data were processed

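The members, lists and alternatives were chosen with earlier results of these data known. The authors deposited a read count and a TPM value per mature miRNA and library, and the TPM equals the count per 1e6 miRNA reads of the library, tested on the table. The authors also deposited log2 fold changes with p-values and adjusted p-values. The aligner, genome build and miRBase release used by the authors were not named in any label or header.

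Counts were fitted in R 4.3.3 with edgeR 4.0.16 (filterByExpr, TMM, glmQLFit and glmQLFTest, 1 coefficient for each of 4 groups, common dispersion 0.346) and, as an alternative, DESeq2 1.42.0, and the fit was tested on simulated data. The error after ± beside a fold change is its standard error. Thinning was calculated exactly from the hypergeometric distribution in scipy 1.17.1. Named in full were members called in any comparison, averaging at least 50 TPM in any group, among the 5 with the most reads, or among the 5 largest differences of either exosome-tissue comparison. Deviations of same-numbered libraries from their group means were correlated at 0.371 to 0.527 between HC-L exosomes and tissue and 0.211 to 0.342 between the exosome groups. They were at 0.128 to 0.230 between the tissue groups and 0.0360 to 0.140 between HC-P exosomes and tissue. Across both muscle and source they were at 0.0126 to 0.152 (HC-L exosomes, HC-P tissue) and 0.0586 to 0.138 (HC-L tissue, HC-P exosomes). Libraries of different number were not compared, so these values cannot show a pairing. The replicate block uses the titles' numbers, which the labels do not explain. No mature sequence is printed, since none was in the sources used here.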

Additional observations from a re-analysis of the deposited data

How the results depend on the processing

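The number of members called depended on the setting. For HC-L exosomes over tissue, with 0 in the report, DESeq2 called 1 (18.3% of all tested), no filter on low counts 1 of 40 (12.2% of all 444), and leaving out a library 0 to 2 (2 of 8 without HC-P tissue replicate 1, miR-7142-3p and miR-10391, with 36.7% of all 221). For HC-P exosomes over tissue, with 1 in the report, library totals called 0, no filter 2 of 40 (18.7% of all 444), and leaving out a library 0 to 2 (12.2% to 37.6% of all tested where a member was called). miR-6782-3p kept its call there with the replicate block (log2 fold change -4.70, adjusted p = 0.0499) and without HC-L exosome replicate 2 or 3, and its adjusted p ran up to 0.149 with another library left out. DESeq2 size factors in edgeR, and totals without the 3 most abundant miRNAs, called miR-10388 in its place (20.2% and 19.4% of all tested). With no filter, 2 of 40 members were called for HC-L tissue over HC-P tissue, with 6.31% of all 444, and 1 for the difference of the exosome-tissue differences, with 1.13%. Most reads of the members in these calls were in HC-P tissue replicate 1. The replicate block changed no call of a member. Scaling moved all miRNAs: their median log2 fold change with TMM was -0.40 for HC-L and -0.70 for HC-P, and with library totals 0.72 for HC-L and 0.0029 for HC-P, so values near 0 have no settled direction.

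Of 310 single log2 fold changes recomputed, 279 kept direction and side of the threshold, 8 passed it, 7 lost it and 16 changed sign. For HC-L, miR-4334-3p was at 0.71 with library totals, 0.18 with totals without the 3 most abundant and -0.50 to 0.087 with a library left out, and miR-2320-3p at 0.29, 0.0017 and -1.13 to 0.41 under the same changes. Also for HC-L, leaving out a library gave -0.093 to 1.24 for miR-6529, -0.12 to 1.10 for miR-9843-3p and -0.59 to 2.44 for miR-9841-3p. For HC-P it gave -0.88 to 0.99 for miR-6529 (-0.00073 with the replicate block), -5.49 to 1.03 for miR-7137-5p and -0.19 to 0.99 for miR-9843-3p, and, with no change of sign, 1.63 to 4.09 for miR-10391, 0.44 to 3.58 for miR-9841-3p, -2.53 to -0.93 for miR-7142-3p and -8.18 to -2.55 for miR-2320-3p. The cause was not tested.

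Without the 3 most abundant miRNAs in the total, members took 0.102% of reads in HC-L exosomes, 0.0733% in HC-L tissue, 0.120% in HC-P exosomes and 0.0939% in HC-P tissue. Without miR-6529, they took 0.0168% of reads in HC-L exosomes, 0.0111% in HC-L tissue, 0.0187% in HC-P exosomes and 0.0260% in HC-P tissue. With 3 reads asked for after thinning, 3.19 members were expected in HC-L exosomes (15 with a read and no thinning), 2.18 in HC-L tissue (24.7), 4.32 in HC-P exosomes (15.3) and 3.16 in HC-P tissue (27).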
